A study of Homo sapiens with 12 samples.

Results

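The G2/M and mitosis genes described here were a list of 41 genes that act from mitotic entry to cytokinesis. Each was taken as the transcript row with the highest total count among its annotated transcripts. All 41 were counted, of 30599 genes counted in the table, and all 41 passed the filter on low counts, as did 15831 genes in total. The cells were THP-1, an established human line of acute monocytic leukaemia, here a single line with no genetic change made for the study according to the labels. They were exposed for 2 h to AZ5576, known as an inhibitor of CDK9, to THZ531, known as an inhibitor of CDK12 and CDK13, to YKL5124, known as an inhibitor of CDK7, or to the vehicle DMSO, with 3 libraries per group. Every group, the vehicle group included, also received 1 mM of the uridine analogue 4-thiouridine in the final 10 minutes. The labels give no dose of any inhibitor. RNA was converted to libraries from the 3′ ends of polyadenylated transcripts, and only the total reads per transcript were analysed here, not the reads with the label. The count columns taken as DMSO carry the name UT, which the labels do not explain. The contrasts of 1 inhibitor with another need no such assignment. Whether the 3 libraries of a group are separate cultures is not stated in the labels. The p-values therefore reflect only how far these libraries differ from each other, and that spread may be technical.

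Cells enter mitosis when cyclin B and CDK1 form an active kinase. Aurora, Polo and NEK kinases, kinesin motors and centromere proteins then build the spindle, and the spindle checkpoint holds back the anaphase-promoting complex until the chromosomes are attached. Transcription of many of these genes peaks in G2 and M. The MuvB complex, which binds the cell cycle homology region (CHR) in their promoters, NF-Y, which binds CCAAT boxes, and the factors B-MYB and FOXM1 are known to direct it. CDK7, CDK9, CDK12 and CDK13 are kinases that act on RNA polymerase II, and CDK7 is also known as the kinase that activates other CDKs of the cell cycle.

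Promoters of 34 of the 41 genes were matched by symbol in RefSeq (GRCh38.p14). These windows ran from 250 bases before to 50 bases after each annotated start, and motifs were searched on both strands. The core CHR letters TTTGAA were present in 24 of the 34 promoters (70.6%), against 15.4% of 27305 promoters in the same table. CCAAT was present in 27 (79.4%), against 35.7%. Both CCAAT and at least 1 CHR form (TTTGAA or TTCGAA) were found in 22 (64.7%), against 6.58%. At least 1 of the E2F letters TTTCGCGC and TTTGGCGC was found in 2 (5.88%), against 1.18%. The 4 promoters below are shown because these genes, among those with an entry, had the largest falls (CCNF and ESPL1) and the largest rises (KIF23 and PRC1) against DMSO, so that the letters shared by genes that moved in opposite directions can be read side by side. They are the 250 bases before the start, 5′ to 3′ along the gene, and capitals mark CHR letters and CCAAT on either strand, where CCAAT on the other strand reads ATTGG. CCNF lies on the plus strand (chr16:2429197-2429446), ESPL1 on the plus strand (chr12:53268049-53268298), KIF23 on the plus strand (chr15:69414099-69414348) and PRC1 on the minus strand (chr15:90994536-90994785).
CCNF: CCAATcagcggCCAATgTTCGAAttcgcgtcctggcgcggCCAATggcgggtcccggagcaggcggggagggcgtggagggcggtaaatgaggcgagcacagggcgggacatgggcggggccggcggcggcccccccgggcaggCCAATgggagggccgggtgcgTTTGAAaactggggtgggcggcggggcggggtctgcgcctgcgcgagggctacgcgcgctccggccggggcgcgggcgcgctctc
ESPL1: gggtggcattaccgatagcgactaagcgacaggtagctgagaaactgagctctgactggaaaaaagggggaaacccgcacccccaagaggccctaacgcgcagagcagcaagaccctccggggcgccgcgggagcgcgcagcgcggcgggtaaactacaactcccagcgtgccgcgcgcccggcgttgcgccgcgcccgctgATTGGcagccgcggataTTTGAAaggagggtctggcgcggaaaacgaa
KIF23: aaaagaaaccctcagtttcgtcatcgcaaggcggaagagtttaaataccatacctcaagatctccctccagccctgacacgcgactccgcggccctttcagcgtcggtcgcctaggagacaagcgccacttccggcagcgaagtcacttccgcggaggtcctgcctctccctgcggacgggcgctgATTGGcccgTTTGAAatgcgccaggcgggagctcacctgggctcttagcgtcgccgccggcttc
PRC1: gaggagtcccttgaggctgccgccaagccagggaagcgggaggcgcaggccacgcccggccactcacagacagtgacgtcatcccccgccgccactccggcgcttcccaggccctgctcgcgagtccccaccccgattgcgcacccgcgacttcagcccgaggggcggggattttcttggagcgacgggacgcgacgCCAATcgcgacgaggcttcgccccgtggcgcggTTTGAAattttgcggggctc
All 4 held TTTGAA, with its first base 85 bases before the start in CCNF, 31 in ESPL1, 55 in KIF23 and 20 in PRC1. CCNF held 4 CCAAT boxes and the variant TTCGAA, and the other three promoters held 1 CCAAT box each. The genes that fell and those that rose with THZ531 both carried these letters. CHR letters were in 12 of the 16 matched genes that fell in 4 of the 5 that rose and in 9 of the 13 that were not called. A match describes letters and not a bound site, and a promoter without a match lacks only those letters in this window.

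Human counts with 1 row per gene ranged from 5048321 (AZ5576 replicate 2) to 12743576 per library. AZ5576 replicate 2, the shallowest library, also stood apart from its group on the third principal component of all genes (29.58, against 4.13 and 2.15). Of 10 marker genes listed for monocytic leukaemia, 8 were at 1 CPM or more in every library, CPM being reads scaled to a common library total. The defining markers of T cells, epithelium and fibroblasts, 3 genes each, summed to under 1 CPM in every library. The rows of CD3E, CD2 and COL1A2 were in the table and held 0 reads. Levels below are CPM after trimmed-mean (TMM) scaling, and tests are edgeR's quasi-likelihood test with Benjamini-Hochberg adjustment over 15831 genes. "Fell" and "rose" are used where the adjusted p was under 0.05, and errors after log2 fold changes are standard errors. TMM scaling sets the middle of all genes near 0. Scaling to the fly spike-in moved the median log2 fold change of all genes to -0.173 with AZ5576, -0.367 with THZ531 and -0.068 with YKL5124, and library size alone moved it to -0.117, -0.293 and -0.023. Fly reads were 3.27%, 3.42% and 2.73% of all counts in DMSO, and 3.06%, 3.57% and 3.08% with AZ5576. They were 3.28%, 3.29% and 3.07% with THZ531 and 3.35%, 3.20% and 3.06% with YKL5124, so the groups overlapped. Fly material was added to purified RNA, so this scaling does not follow RNA per cell.

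The mitotic genes were lower on balance after each inhibitor, most evenly with YKL5124 and least evenly with THZ531. With AZ5576, 15 of the 41 fell (36.6%) and 2 rose (4.88%), whereas 23.1% of all genes tested were called lower and 18.6% higher. With THZ531, 18 fell (43.9%) and 9 rose (22.0%), against 32.9% and 30.4% of all genes. With YKL5124, 18 fell (43.9%) and 0 rose, against 13.5% and 7.25% of all genes. By edgeR 0 members were higher with YKL5124 at an unadjusted p under 0.05 as well, by DESeq2 0 were higher, and the members above 0, CDC25C (0.023) and HMMR (0.066), had 95% intervals that reached below 0. No share of all genes by DESeq2, or at an unadjusted p, stands beside these counts. The median log2 fold change of the 41 was -0.16 with AZ5576, -0.18 with THZ531 and -0.20 with YKL5124, and the median of all genes was 0.006, -0.002 and -0.004. Members spread from -1.13 to 0.24 with AZ5576, from -1.85 to 0.79 with THZ531 and from -1.03 to 0.066 with YKL5124. In either direction together, 41.5%, 65.9% and 43.9% of the members were called, against 41.7%, 63.4% and 20.8% of all genes, so for AZ5576 and THZ531 the number of calls was near the background. In these bulk samples, fewer cells in G2 and M and less of each transcript per cell cannot be told apart.

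Summed over the 41 genes, the level was 2843, 2874 and 2855 CPM in the DMSO libraries. The sum was 2542, 2495 and 2586 CPM with AZ5576. It was 2711, 2714 and 2728 CPM with THZ531 and 2415, 2394 and 2405 CPM with YKL5124. No inhibitor library reached the DMSO range, and the YKL5124 libraries were the lowest. At a 1.5-fold threshold, 6 members fell and 0 rose with AZ5576, 8 fell and 3 rose with THZ531, and 3 fell and 0 rose with YKL5124. For all genes, 14.8%, 25% and 6.39% were called lower at that fold, and 4.07%, 11.8% and 3.32% higher. At that fold the share of the 41 that fell was near the background with AZ5576 and YKL5124 and below it with THZ531. The share that rose was below the background with each inhibitor. Without AZ5576 replicate 1 the count lower with AZ5576 was 9, and without YKL5124 replicate 3 the count lower with YKL5124 was 11. The 2 genes higher with AZ5576 came to 1 when DMSO replicate 1 or any of the 3 AZ5576 libraries was left out. With fly scaling 21 members were lower and 0 higher with AZ5576, 29 and 2 with THZ531, and 14 and 0 with YKL5124, and 10.3%, 13.2% and 21.1% of all calls were then higher, against 44.7%, 48% and 34.9% with TMM scaling. With library size alone the counts were 25 and 0, 28 and 5, and 20 and 0, and 21.9%, 23.2% and 30.2% of all calls were higher. These are shares of calls and not of all genes tested. Member counts under fly scaling or library size alone, here and below, thus have no background share beside them.

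**Figure D1:**
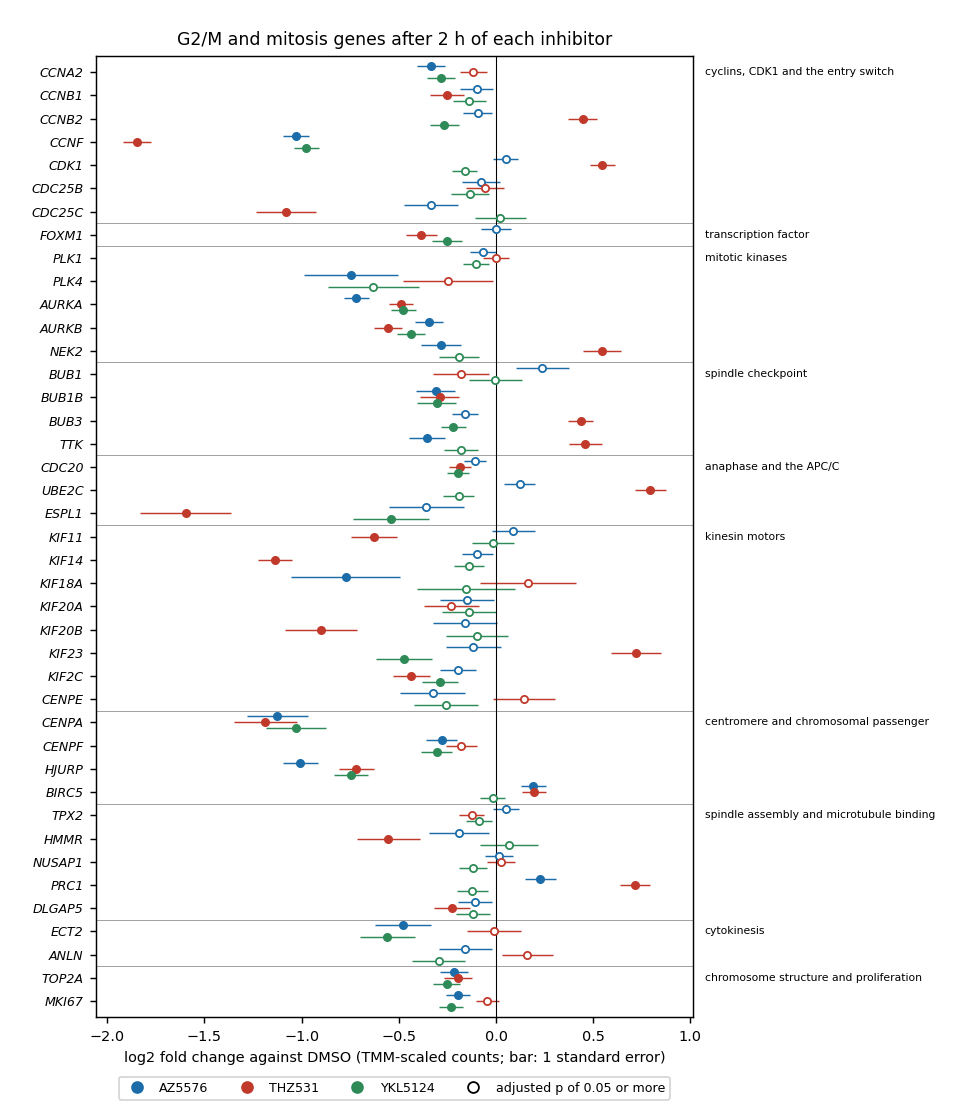
Log2 fold change against DMSO of each of the 41 genes, grouped by role, for AZ5576, THZ531 and YKL5124 (points; bars are 1 standard error; filled points have an adjusted p under 0.05). Points for YKL5124 lie at or left of 0.066, whereas THZ531 points spread from -1.85 (CCNF) to 0.79 (UBE2C).

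Of the 7 genes of the entry switch, 2 fell with AZ5576, 3 fell and 2 rose with THZ531, and 3 fell with YKL5124. As shares these were 28.6% lower with AZ5576, 42.9% lower and 28.6% higher with THZ531 and 42.9% lower with YKL5124, against 23.1%, 32.9%, 30.4% and 13.5% of all genes. CCNF, which encodes cyclin F, the substrate receptor of an SCF ubiquitin ligase, had the largest fall of the whole list. Its level was 156, 147 and 142 CPM in the DMSO libraries, 75.2, 67.2 and 74.3 with AZ5576, 41.3, 42.1 and 40.2 with THZ531 and 73.2, 74.1 and 78.5 with YKL5124. The THZ531 libraries lay below all others, the AZ5576 and YKL5124 libraries overlapped each other, and all 9 lay below DMSO. The log2 fold change was -1.03 ± 0.067 with AZ5576, -1.85 ± 0.071 with THZ531 and -0.98 ± 0.066 with YKL5124, or 3.6-fold lower with THZ531 (adjusted p = 2.71e-19, edgeR). CCNF overlaps AC106820.5 on the other strand, so reads of the pair cannot be told apart without the strand setting of the counting. CDC25C, a phosphatase that activates CDK1, had 13.0, 15.4 and 15.0 CPM in DMSO, 10.4, 10.5 and 13.1 with AZ5576, 7.16, 8.05 and 5.35 with THZ531 and 16.9, 12.4 and 15.1 with YKL5124. Only the THZ531 libraries were clear of all the others. CDC25C fell with THZ531 (-1.08 ± 0.15, adjusted p = 4.95e-07, edgeR).

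The B-type cyclins parted from each other. CCNB2, a partner of CDK1, had 78.6, 77.1 and 85.5 CPM in DMSO, 73.7, 76.9 and 75.7 with AZ5576, 118, 108 and 103 with THZ531 and 74.3, 61.7 and 65.1 with YKL5124. It rose with THZ531 (0.45 ± 0.073, adjusted p = 4.82e-06, edgeR) and fell with YKL5124 (-0.27 ± 0.075, adjusted p = 0.0098), and in both cases the groups did not overlap. With fly scaling the CCNB2 value for THZ531 was 0.073, with an adjusted p of 0.638. CCNB1, the main mitotic cyclin, fell with THZ531 (-0.25 ± 0.086) and its values were -0.10 with AZ5576 and -0.14 with YKL5124. CDK1 itself rose with THZ531, from 132, 133 and 141 CPM to 194, 197 and 201 CPM (0.55 ± 0.064, adjusted p = 1.41e-08, edgeR), and this became 0.18 (adjusted p = 0.206) with fly scaling. CCNA2, which encodes cyclin A and acts in S phase and G2, fell with AZ5576 (-0.34 ± 0.072) and YKL5124 (-0.28 ± 0.071), and its value with THZ531 was -0.12. CCNA2 overlaps EXOSC9 on the other strand. CDC25B, the phosphatase thought to start CDK1 activation, was between -0.13 and -0.055 in the 3 comparisons and passed none.

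FOXM1, a transcription factor for G2/M genes, had 47.5, 54.5 and 48.8 CPM in DMSO, 51.4, 45.6 and 51.8 with AZ5576, 39.3, 38.3 and 37.8 with THZ531 and 43.7, 41.9 and 40.9 with YKL5124. The THZ531 and YKL5124 libraries were below every DMSO and AZ5576 library. FOXM1 fell with THZ531 (-0.38 ± 0.08, adjusted p = 0.000118, edgeR) and with YKL5124 (-0.25 ± 0.078, adjusted p = 0.0186), and was -0.002 with AZ5576. The call with YKL5124 was lost with DESeq2, with fly or upper quartile scaling and without any of 3 libraries (DMSO replicate 2, YKL5124 replicate 2 or YKL5124 replicate 3). FOXM1 overlaps ITFG2 on the other strand, and the strand setting of the counting is not given in the sources used here, so reads of the pair cannot be told apart.

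Among the 5 mitotic kinases, 4 fell with AZ5576, 2 fell and 1 rose with THZ531, and 2 fell with YKL5124. These were 80% lower with AZ5576, 40% lower and 20% higher with THZ531 and 40% lower with YKL5124, against 23.1%, 32.9%, 30.4% and 13.5% of all genes. AURKA, the Aurora kinase of the spindle poles, had 128, 121 and 127 CPM in DMSO, 75.0, 79.6 and 74.8 with AZ5576, 88.4, 89.9 and 89.6 with THZ531 and 89.2, 87.6 and 93.3 with YKL5124. It was below DMSO in all 9 inhibitor libraries and lowest with AZ5576. The log2 fold changes of AURKA were -0.72 ± 0.064, -0.49 ± 0.063 and -0.48 ± 0.062 in that order. The difference of AURKA between THZ531 and AZ5576 (0.23) was called, but not with library size alone or fly scaling (0.051). AURKB, the Aurora kinase of the chromosomal passenger complex, fell with all 3 inhibitors (-0.34 ± 0.071, -0.56 ± 0.072 and -0.44 ± 0.071), with no overlap with DMSO.

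PLK4, which controls centriole duplication, was counted at low depth, with 3.93, 4.66 and 3.70 CPM in DMSO, 2.32, 2.97 and 2.25 with AZ5576, 1.95, 3.97 and 4.17 with THZ531 and 3.03, 2.80 and 2.17 with YKL5124. PLK4 fell with AZ5576 (-0.75 ± 0.24, adjusted p = 0.0136, edgeR), and this call was lost with DESeq2, with rows summed per gene and without DMSO replicate 2, AZ5576 replicate 1 or AZ5576 replicate 3. NEK2, a centrosome kinase, moved in opposite directions. Its level was 27.9, 21.1 and 24.9 CPM in DMSO, 20.0, 22.6 and 19.5 with AZ5576, 34.5, 35.3 and 38.6 with THZ531 and 19.8, 21.8 and 23.2 with YKL5124. The THZ531 libraries lay above all others, while AZ5576 overlapped DMSO. NEK2 rose with THZ531 (0.55 ± 0.098, adjusted p = 1.58e-05, edgeR) and fell with AZ5576 (-0.28 ± 0.10, adjusted p = 0.0301). The fall was lost with DESeq2, with upper quartile scaling and without DMSO replicate 1 or 3 or AZ5576 replicate 1 or 3, and the rise became 0.18 (adjusted p = 0.254) with fly scaling. The row used for NEK2, that of a coding transcript, ended 4115 bases before the gene's 3′ end. PLK1, the main Polo kinase, passed no test, with -0.067, -0.001 and -0.10 and 95% intervals from -0.24 to 0.14 in all. With THZ531, PLK1 was -0.29 by library size alone (adjusted p = 0.00029) and -0.37 by fly scaling (adjusted p = 0.00542), both called. PLK1 overlaps ERN2 on the other strand.

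The spindle checkpoint genes did not move as a group. BUB1B, which encodes BUBR1, fell with each inhibitor (-0.31, -0.29 and -0.31), although none of these 3 calls was kept by DESeq2. These values came from the row of a nonsense-mediated-decay transcript that ends 18502 bases before the gene's 3′ end. On its coding row BUB1B was -0.31 with AZ5576 (adjusted p = 0.0941, edgeR), -0.85 with THZ531 (adjusted p = 2.84e-05) and -0.47 with YKL5124 (adjusted p = 0.0204). BUB3, which carries BUB1 and BUBR1 to kinetochores, had 102, 112 and 104 CPM in DMSO, 97.5, 87.2 and 97.6 with AZ5576, 147, 139 and 144 with THZ531 and 95.1, 88.3 and 89.5 with YKL5124. The THZ531 libraries were the highest and the YKL5124 libraries lay below DMSO. BUB3 rose with THZ531 (0.44 ± 0.065, adjusted p = 1.06e-06, edgeR) and fell with YKL5124 (-0.22 ± 0.066, adjusted p = 0.0169). The fall was lost with fly or upper quartile scaling and without DMSO replicate 2, YKL5124 replicate 2 or YKL5124 replicate 3.

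TTK, the checkpoint kinase MPS1, had 26.9, 25.1 and 28.1 CPM in DMSO, 20.9, 19.0 and 22.0 with AZ5576, 34.6, 38.9 and 36.6 with THZ531 and 23.9, 22.8 and 24.1 with YKL5124. All AZ5576 libraries were below DMSO and all THZ531 libraries above it. TTK fell with AZ5576 (-0.36 ± 0.092, adjusted p = 0.00241, edgeR) and rose with THZ531 (0.46 ± 0.086, adjusted p = 3.13e-05). With fly scaling the rises with THZ531 became 0.072 for BUB3 (adjusted p = 0.64) and 0.089 for TTK (adjusted p = 0.602), while library size alone also ended both calls. BUB1, a kinetochore kinase, passed no test (0.24, -0.18 and -0.004).

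The 3 genes of anaphase split widely under THZ531. ESPL1 encodes separase, the protease that cuts cohesin. Its level was 5.56, 6.76 and 6.68 CPM in DMSO, 4.95, 5.15 and 4.76 with AZ5576, 3.13, 2.10 and 1.18 with THZ531 and 4.49, 5.13 and 3.50 with YKL5124. The THZ531 libraries were below all the rest, and counts were small, from 11 to 24 reads in them against 71 to 85 in DMSO. ESPL1 was 3.02-fold lower with THZ531 (-1.60 ± 0.24, adjusted p = 8.45e-07, edgeR). It also fell with YKL5124 (-0.54 ± 0.20, adjusted p = 0.0476), a call lost under RLE or upper quartile scaling, with DESeq2, with summed or coding rows, and without any of 7 libraries (DMSO replicate 2 or 3, AZ5576 replicate 1 or 3, THZ531 replicate 2, YKL5124 replicate 1 or 3).

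UBE2C, the ubiquitin-conjugating enzyme of the anaphase-promoting complex, had 96.5, 77.2 and 98.0 CPM in DMSO, 105, 103 and 88.8 with AZ5576, 150.1, 163 and 159 with THZ531 and 77.0, 77.3 and 83.8 with YKL5124. The THZ531 libraries were clear of the rest. UBE2C rose 1.73-fold with THZ531 (0.79 ± 0.079, adjusted p = 5.39e-10, edgeR), the largest rise of the 41 in the comparisons with DMSO, and was still called with fly scaling (0.42, adjusted p = 0.00122). CDC20, the activator of the same complex, had 396, 401 and 398 CPM in DMSO, 373, 351 and 384 with AZ5576, 349.5, 345 and 357 with THZ531 and 330.3, 359 and 354 with YKL5124. The inhibitor libraries all lay below DMSO, but by little. CDC20 fell with THZ531 (-0.19 ± 0.057) and YKL5124 (-0.20 ± 0.056).

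**Figure D2:**
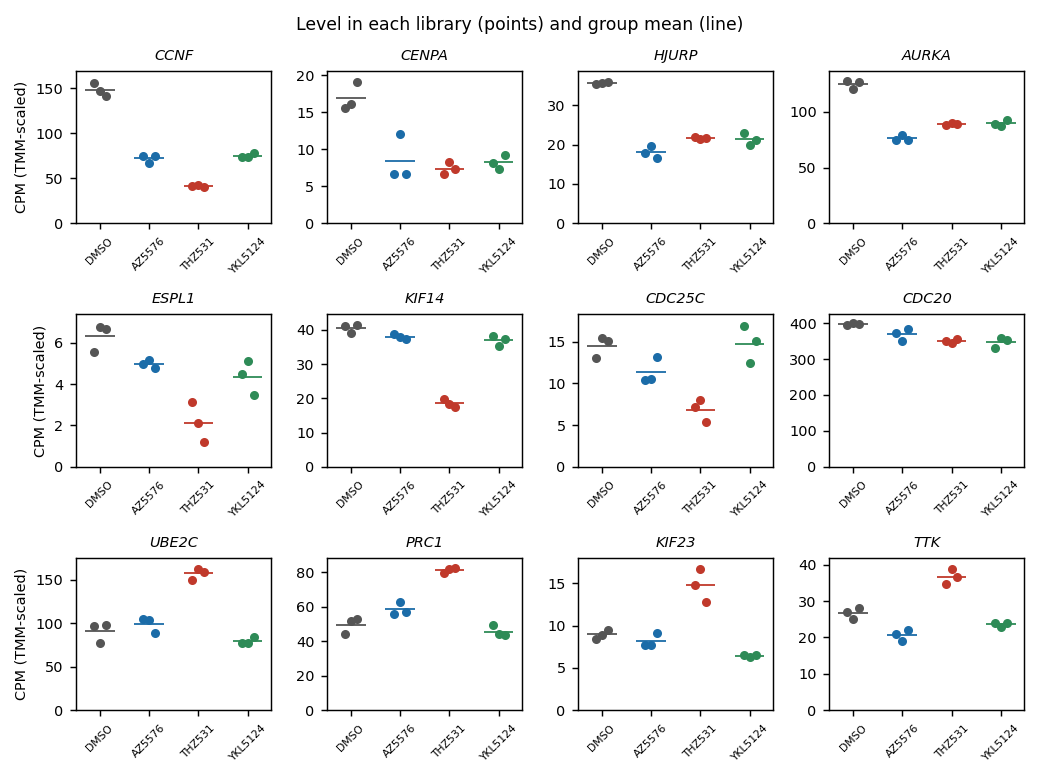
Level of 12 of the 41 genes in each library (points, TMM-scaled CPM on axes that start at 0; lines are group means) for DMSO, AZ5576, THZ531 and YKL5124. CCNF is below DMSO in all 9 inhibitor libraries, while UBE2C, PRC1, KIF23 and TTK are highest in the 3 THZ531 libraries.

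Of the 8 kinesin genes, 1 fell with AZ5576, 4 fell and 1 rose with THZ531, and 2 fell with YKL5124. These were 12.5% lower with AZ5576, below the 23.1% of all genes, 50% lower and 12.5% higher with THZ531, against 32.9% and 30.4%, and 25% lower with YKL5124, against 13.5%. KIF14, a motor of the midzone and midbody, had 41.3, 39.2 and 41.3 CPM in DMSO, 38.7, 37.8 and 37.4 with AZ5576, 19.8, 18.2 and 17.5 with THZ531 and 38.2, 35.4 and 37.3 with YKL5124. It was 2.2-fold lower with THZ531 (-1.14 ± 0.086, adjusted p = 1.66e-12, edgeR), and the AZ5576 and YKL5124 libraries, all just below DMSO, gave -0.096 and -0.14. KIF20B, a cytokinesis motor, had 7.11, 7.52 and 7.47 CPM in DMSO, 5.43, 9.31 and 6.34 with AZ5576, 3.39, 4.52 and 3.85 with THZ531 and 7.15, 6.62 and 6.91 with YKL5124. Its THZ531 libraries did not overlap any other group, and it fell in that comparison (-0.90 ± 0.19, adjusted p = 0.000104, edgeR). KIF11, the motor that separates the spindle poles, had 21.4, 16.9 and 20.0 CPM in DMSO, 22.4, 19.2 and 20.1 with AZ5576, 12.1, 13.0 and 12.7 with THZ531 and 19.5, 16.8 and 21.6 with YKL5124. It fell with THZ531 (-0.63 ± 0.12, adjusted p = 3.84e-05, edgeR).

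KIF23, the motor subunit of centralspindlin, went the other way. Its level was 8.45, 8.95 and 9.51 CPM in DMSO, 7.75, 7.73 and 9.10 with AZ5576, 14.8, 16.7 and 12.8 with THZ531 and 6.55, 6.34 and 6.49 with YKL5124. THZ531 libraries were above and YKL5124 libraries below all DMSO libraries. KIF23 rose with THZ531 (0.72 ± 0.13, adjusted p = 1.7e-05, edgeR) and fell with YKL5124 (-0.47 ± 0.14, adjusted p = 0.0174). The rise was 0.35 (adjusted p = 0.0649) with fly scaling, and the fall was lost with DESeq2 and without DMSO replicate 3 or YKL5124 replicate 2. KIF2C, which takes apart microtubule ends, fell with THZ531 (-0.44 ± 0.094) and YKL5124 (-0.29 ± 0.091). Its call with YKL5124 was lost with DESeq2, upper quartile scaling and summed rows. KIF20A, a midzone motor, passed no test (-0.15, -0.23 and -0.14), and it overlaps CDC23 on the other strand.

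For the kinesins KIF18A and CENPE the row used lay far inside the gene, 76712 and 74499 bases before its 3′ end, in a retained-intron transcript and a processed transcript. KIF18A, which limits chromosome movement at metaphase, had 3.85, 2.76 and 2.44 CPM in DMSO, 1.52, 2.38 and 1.75 with AZ5576, 3.52, 2.54 and 4.17 with THZ531 and 3.64, 2.14 and 2.58 with YKL5124 on that row. The AZ5576 libraries lay below the DMSO libraries, by little. KIF18A fell with AZ5576 (-0.77 ± 0.28, adjusted p = 0.0263, edgeR), a call lost with DESeq2, with the coding row and without DMSO replicate 1, AZ5576 replicate 1 or AZ5576 replicate 3. On the coding transcripts' rows, an alternative chosen after seeing the data, KIF18A was -1.41 with THZ531 (adjusted p = 0.0169), against 0.17 on the inner row. CENPE, a motor of the kinetochore, was -0.86 with THZ531 on its coding row (adjusted p = 0.00167), against 0.14 on the inner row.

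The centromere genes CENPA and HJURP fell with every inhibitor on the row used for each. CENPA encodes the histone H3 variant that marks centromeres. Its level was 15.6, 16.1 and 19.0 CPM in DMSO, 6.63, 12.1 and 6.60 with AZ5576, 6.64, 8.27 and 7.27 with THZ531 and 8.12, 7.36 and 9.24 with YKL5124. All inhibitor libraries lay below DMSO, with AZ5576 replicate 2 the closest. The log2 fold changes of CENPA were -1.13 ± 0.16 with AZ5576, -1.19 ± 0.16 with THZ531 and -1.03 ± 0.15 with YKL5124. These values came from the coding transcript's end, which lies 6478 bases before the 3′ end of the gene. A processed transcript that ends at the gene's 3′ end gave 0.81 with AZ5576 (adjusted p = 0.000849 in a fit of every row), -0.37 with THZ531 and 0.27 with YKL5124. The value of CENPA with AZ5576 thus depended on which end was read.

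HJURP, the chaperone that loads CENP-A, had 35.4, 35.6 and 36.0 CPM in DMSO, 17.8, 19.6 and 16.6 with AZ5576, 21.9, 21.5 and 21.6 with THZ531 and 23.0, 19.9 and 21.2 with YKL5124. All inhibitor libraries were well below DMSO and the AZ5576 libraries were lowest. The log2 fold changes of HJURP were -1.01 ± 0.091, -0.72 ± 0.089 and -0.75 ± 0.088 (adjusted p = 2.83e-10, 4.17e-08 and 1.32e-07, edgeR), and a row that ends at the gene's 3′ end gave -1.02, -0.76 and -0.78. HJURP was called higher with THZ531 than with AZ5576 (0.29). That call was lost with fly scaling (0.098), library size alone, DESeq2 and without AZ5576 replicate 3 or any THZ531 library. The difference between YKL5124 and AZ5576 (0.26) was not called. CENPF, a kinetochore protein, fell with AZ5576 (-0.28 ± 0.081) and YKL5124 (-0.31 ± 0.08), and its value with THZ531 was -0.18 (adjusted p = 0.0533, edgeR). BIRC5, which encodes survivin of the chromosomal passenger complex, rose slightly with AZ5576 (0.19 ± 0.063) and THZ531 (0.20 ± 0.063), and with THZ531 it turned to -0.096 under library size alone and -0.17 under fly scaling, neither of them called.

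PRC1, which bundles microtubules of the midzone, had 43.9, 51.6 and 53.1 CPM in DMSO, 55.9, 62.4 and 56.6 with AZ5576, 79.3, 81.9 and 82.1 with THZ531 and 49.2, 44.0 and 43.5 with YKL5124. All THZ531 libraries exceeded every other library. PRC1 rose with THZ531 (0.72 ± 0.078, adjusted p = 3.48e-09, edgeR), also with fly scaling (0.34, adjusted p = 0.012), and rose with AZ5576 (0.23 ± 0.08, adjusted p = 0.023), where the call was lost under fly scaling or library size alone, without a count filter, on summed rows and without DMSO replicate 1 or AZ5576 replicate 2. PRC1 overlaps the antisense gene PRC1-AS1, so reads of the pair cannot be told apart without the strand setting. HMMR, a spindle protein that binds hyaluronan, fell with THZ531 (-0.55 ± 0.16), as did DLGAP5, a microtubule-stabilising protein of the kinetochore fibres (-0.23 ± 0.091). The row used for HMMR was that of a retained-intron transcript ending 22035 bases before the gene's 3′ end. On its coding row HMMR was -0.66 with THZ531 (adjusted p = 0.000142, edgeR), 0.021 with AZ5576 and 0.16 with YKL5124, the last 2 not called. TPX2, which activates Aurora A, and NUSAP1, a microtubule-binding protein, passed no test. With THZ531, TPX2 was -0.13 but -0.42 under library size alone (adjusted p = 2.5e-06) and -0.49 under fly scaling (adjusted p = 0.000124), both called. NUSAP1 was 0.026 but -0.27 and -0.34 under these scalings, both called as well.

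ECT2, the exchange factor that activates RhoA at the division site, fell with AZ5576 (-0.48 ± 0.14) and YKL5124 (-0.56 ± 0.14) and was -0.01 with THZ531. Without AZ5576 replicate 1 the ECT2 call with AZ5576 was lost. ANLN, a scaffold of the contractile ring, passed no test (-0.16, 0.16 and -0.30). TOP2A, the topoisomerase that untangles chromosomes, fell with each inhibitor (-0.22, -0.20 and -0.25). On the coding row TOP2A was -0.069 with AZ5576 (adjusted p = 0.387, edgeR), where upper quartile scaling and summed rows also ended the call. MKI67, which encodes the proliferation marker Ki-67, fell with AZ5576 (-0.19 ± 0.061) and YKL5124 (-0.23 ± 0.061) and was -0.044 with THZ531.

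The same 41 genes were then compared between inhibitors, where no DMSO library enters the contrast. THZ531 against AZ5576 gave 11 genes lower and 15 higher, against 27.8% and 27.1% of all genes (55% in either direction). The members lower with THZ531 by at least 1.5-fold were ESPL1 (-1.24), KIF14 (-1.04), CCNF (-0.82), CDC25C (-0.75), KIF20B (-0.74) and KIF11 (-0.72). The members higher by that fold were KIF18A (0.94), KIF23 (0.84), NEK2 (0.83), TTK (0.82), UBE2C (0.67) and BUB3 (0.60). These were 6 of 41 in each direction, against 20.2% of all genes lower and 14% higher at that fold. On its coding row KIF18A turned to -0.92 (adjusted p = 0.168). With fly scaling 13 members were lower and 9 higher, and 29.8% of all calls were higher, against 49.4% with TMM scaling.

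YKL5124 against THZ531 gave 13 genes lower and 7 higher, against 30.5% of all genes in each direction (61% in all). At least 1.5-fold, 8 were lower and 7 higher, against 12.8% and 23.5%. The 7 genes higher with YKL5124 were CDC25C (1.10), ESPL1 (1.06), KIF14 (1.00 ± 0.089), CCNF (0.87), KIF20B (0.80), HMMR (0.62) and KIF11 (0.61). The lowest with YKL5124 were KIF23 (-1.19), UBE2C (-0.99), PRC1 (-0.84), NEK2 (-0.74) and CCNB2 (-0.71). With fly scaling 8 were lower and 18 higher, and HJURP, -0.026 with TMM scaling, was called higher at 0.25 with library size alone. YKL5124 and AZ5576 differed least, with 5 genes lower and 1 higher, against 6.23% and 9.6% of all genes (15.8% in either direction). At least 1.5-fold, 0 members were called in either direction, against 0.998% lower and 5.98% higher. PRC1 (-0.35 ± 0.082), UBE2C (-0.31 ± 0.082), FOXM1 (-0.25 ± 0.08), CDK1 (-0.21 ± 0.066) and BIRC5 (-0.21 ± 0.064) were lower with YKL5124, and AURKA (0.24 ± 0.065) was higher. The 5 genes became 2 without AZ5576 replicate 1 or YKL5124 replicate 2 and 3 without AZ5576 replicate 3 or YKL5124 replicate 3, and 0 with fly scaling. The 1 gene higher became 0 without AZ5576 replicate 1 or YKL5124 replicate 3, and 2 without AZ5576 replicate 2, AZ5576 replicate 3 or YKL5124 replicate 2. For CCNF, the 95% interval of the YKL5124 to AZ5576 difference ran from -0.09 to 0.19, and for CENPA from -0.27 to 0.46.

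**Figure D3:**
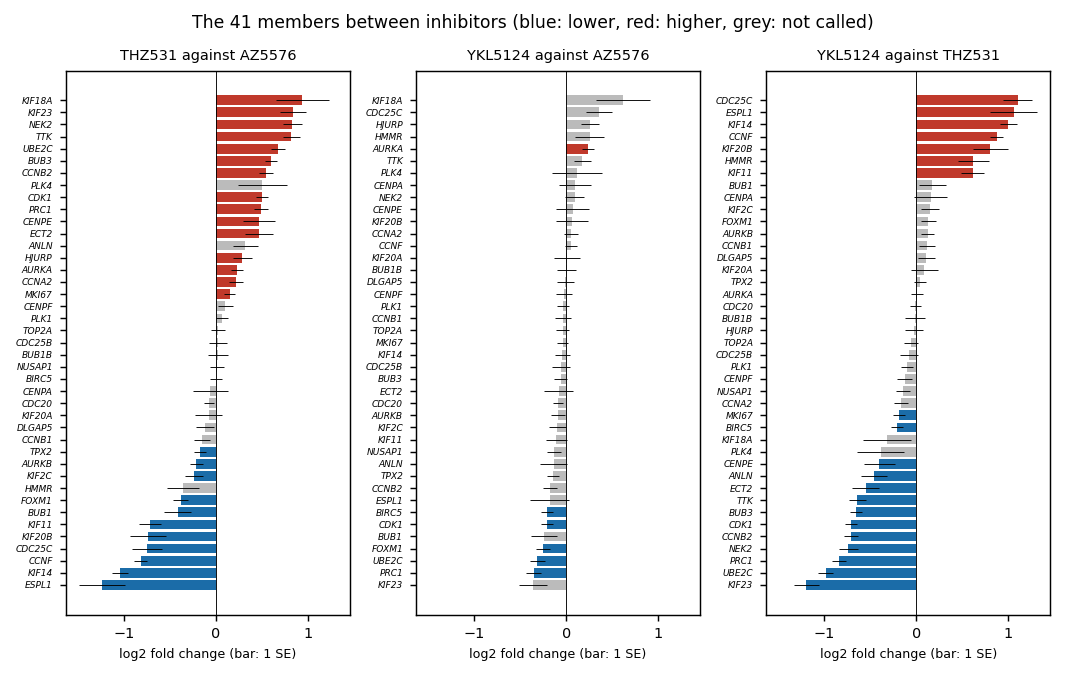
Log2 fold change of the 41 genes in the 3 comparisons between inhibitors, sorted within each panel (bars start at 0; lines are 1 standard error; blue lower, red higher and grey not called at an adjusted p of 0.05). THZ531 differs from AZ5576 in both directions, from -1.24 (ESPL1) to 0.94 (KIF18A), whereas 35 of the 41 bars for YKL5124 against AZ5576 are grey.

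A list of 80 other genes of mitosis and of its transcriptional control, all tested, gave 26 lower and 7 higher with AZ5576, 34 lower and 23 higher with THZ531, and 18 lower and 0 higher with YKL5124. These were 32.5% and 8.75%, 42.5% and 28.7%, and 22.5% and 0%, against 23.1% and 18.6%, 32.9% and 30.4%, and 13.5% and 7.25% of all genes, so the share higher with THZ531 was near the background. With YKL5124, DESeq2 gave 10 lower and 0 higher, and edgeR gave 0 higher at an unadjusted p under 0.05. The share of all genes by DESeq2, or at an unadjusted p, was not set beside these counts. The smallest adjusted p among falls with AZ5576 belonged to CDC25A, a phosphatase that activates CDK2 and CDK1 (-1.31 ± 0.07), and KNSTRN, a kinetochore protein (-0.85 ± 0.12). Among rises it belonged to CKS1B, a CDK-binding protein (0.27 ± 0.055), and STMN1, which destabilises microtubules (0.21 ± 0.051). With THZ531, RBL1, which encodes the pocket protein p107 of the DREAM complex, was -2.20 ± 0.089, and LIN52, a MuvB subunit, -2.76 ± 0.18. On the row used for each gene, the rises were CENPK, a subunit of the inner kinetochore (2.56 ± 0.14), and NFYA, a subunit of NF-Y (1.49 ± 0.087). With YKL5124, CDC25A was -1.36 ± 0.069 and FBXO5, the inhibitor EMI1 of the anaphase-promoting complex, -1.21 ± 0.10. The 3 comparisons share the DMSO libraries, so these values are given side by side and no overlap was tested. Each value is that of the gene's row with the highest total. Whether that row ends at the coding 3′ end is not reported here for this list. Values on an inner row can differ from those on the coding row, as KIF18A and CENPE showed with THZ531.

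The spans of genes that fell and of genes that rose with THZ531 overlapped. The 18 genes lower with THZ531 spanned 4249 to 73330 bases with a median of 29448, and the 9 higher spanned 4382 to 38641 with a median of 16974. Across the 41 genes, which are not independent replicates, Spearman's rho between span and log2 fold change was -0.14 with AZ5576, -0.14 with THZ531 and 0.10 with YKL5124, against -0.015, -0.17 and 0.007 across all 15831 genes.

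The row used ended over 1000 bases before the gene's 3′ end in 8 of the 41 genes, and in 31 of the 41 it was that of a coding transcript. Reads at inner ends were set against reads at the coding 3′ end in 13 of the 41 genes. These genes had a retained-intron or processed transcript that ended at least 5000 bases upstream. Only transcripts with a single row and ends with a minimum total count were used, in the members and in all genes. In CCNF the inner end, of a retained-intron transcript 20932 bases upstream, had 3.33, 1.88 and 2.39 reads per 100 at the coding end in the DMSO libraries. The values were 3.09, 2.95 and 2.47 with AZ5576, 16.7, 14.7 and 13.6 with THZ531, and 1.82, 1.89 and 1.49 with YKL5124. The THZ531 libraries lay far above all the others. In a fit of every row, the inner row of CCNF rose with THZ531 (0.63 ± 0.21, adjusted p = 0.0118, edgeR), while the coding row fell (-1.90 ± 0.076). In 4 of the 13 genes (30.8%), CCNF, CENPE, BUB1B and CENPF, all THZ531 libraries had more inner reads per coding read than any DMSO library. The share among 2321 genes with both kinds of end was 34.4%, so the 13 genes were near the background. No gene of the 13 was higher in all libraries with AZ5576, against 5.26% of the 2321, and 1 (KIF23, 7.69%) was with YKL5124, against 8.14%. In the other direction 0 of the 13 were lower in all libraries with any inhibitor. Of the 2321 genes, 25.4% were lower with AZ5576, 12.2% with THZ531 and 15.5% with YKL5124. Whether inner reads come from shorter transcripts or from priming within unspliced RNA cannot be told apart in these counts.

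**Figure D4:**
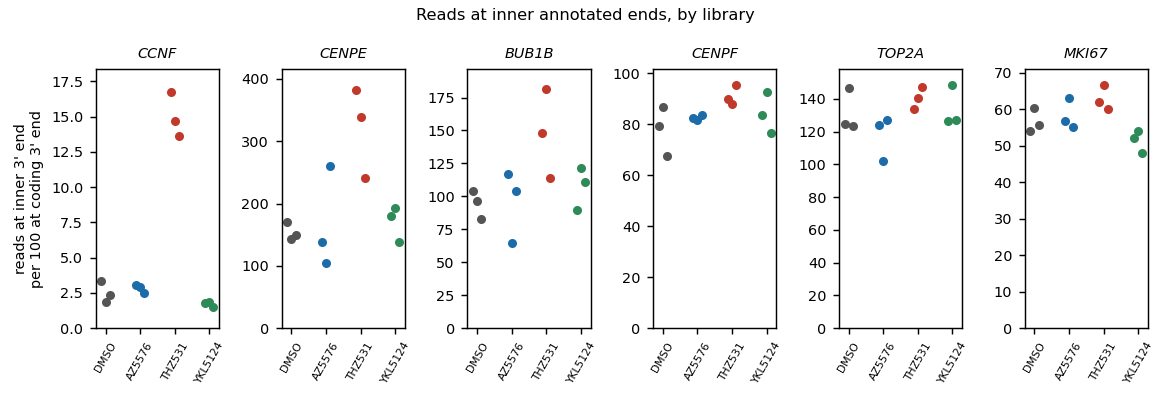
Reads at an inner noncoding annotated end per 100 reads at the coding 3′ end, in each library, for 6 of the 13 genes with such an end (axes start at 0). CCNF, CENPE, BUB1B and CENPF are the 4 genes in which all THZ531 libraries exceeded DMSO, and TOP2A and MKI67 are from the rest. ANLN, BUB1 and NUSAP1, not shown, had log2 shifts of -0.302, -0.226 and -0.043 with THZ531. In CCNF the 3 THZ531 libraries lie between 13.6 and 16.7, above the other 9 libraries, and in TOP2A and MKI67 they overlap DMSO.

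No test against DMSO was passed by 8 of the 41 genes, namely PLK1, BUB1, CDC25B, KIF20A, CENPE, TPX2, NUSAP1 and ANLN. With THZ531, BUB1, CDC25B and KIF20A, like PLK1, TPX2 and NUSAP1, were called lower under both library size alone (-0.47, -0.35 and -0.52) and fly scaling (-0.54, -0.41 and -0.59). Between inhibitors, CENPE was higher with THZ531 than with AZ5576 (0.47 ± 0.17) on its inner row, BUB1 (-0.42 ± 0.15) and TPX2 (-0.18 ± 0.066) were lower, and CENPE (-0.40 ± 0.17) and ANLN (-0.46 ± 0.14) were lower with YKL5124 than with THZ531. On the row used for each, CCNF, AURKA, AURKB, BUB1B, CENPA, TOP2A and HJURP were called lower in all 3 comparisons with DMSO. These comparisons share the DMSO libraries, and other rows of CCNF, BUB1B, CENPA and TOP2A gave different values, as stated above. How many of all genes were called lower in all 3 comparisons, or passed no test, was not counted. Neither group of members can therefore be set against a background share.

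Several calls against DMSO whose libraries were not named above were lost by edgeR's adjusted p when 1 library was left out. Leaving out a library also leaves fewer data for the test, so a lost call does not show that it rested on that library. The fall of CCNB1 with THZ531 was lost without DMSO replicate 3 (adjusted p = 0.055). Of the calls with AZ5576, CENPF and BUB1B were lost without AZ5576 replicate 1 (0.0759 and 0.0697), MKI67 without DMSO replicate 1 (0.0579), TOP2A without DMSO replicate 2 or AZ5576 replicate 2 (up to 0.128) and the rise of BIRC5 without AZ5576 replicate 1 or 3 (up to 0.0618). With THZ531, TOP2A was lost without DMSO replicate 2 (0.16), DLGAP5 without DMSO replicate 1 or 3 (up to 0.125) and the rise of BIRC5 without THZ531 replicate 1 or 3 (up to 0.121). With YKL5124, CDC20 was lost without YKL5124 replicate 1 (0.0709), CENPF without YKL5124 replicate 3 (0.0511), CCNB2 without DMSO replicate 3 or YKL5124 replicate 2 (up to 0.085) and TOP2A without DMSO replicate 2 or YKL5124 replicate 3 (up to 0.0884). KIF2C with YKL5124 was lost without DMSO replicate 2 or 3 or YKL5124 replicate 2 or 3 (up to 0.17), and BUB1B without DMSO replicate 1 or 2 or YKL5124 replicate 2 or 3 (up to 0.133). Among the calls whose libraries stand beside their values above, the highest adjusted p was 0.101 for FOXM1, 0.0764 for BUB3, 0.253 for ESPL1 and 0.07 for KIF23 with YKL5124, and 0.141 for ECT2, 0.182 for KIF18A, 0.218 for NEK2, 0.0625 for PLK4 and 0.194 for PRC1 with AZ5576. Leaving out any 1 library ended no other call of the 41 genes against DMSO. Other settings ended further calls. Summed rows ended CCNB1 with THZ531 and CENPF with YKL5124, DESeq2 ended DLGAP5 with THZ531, and fly scaling ended MKI67, CDC20 and BUB1B with YKL5124 and BIRC5 with AZ5576. Upper quartile scaling ended MKI67 with AZ5576 and CDC20, TOP2A and BUB1B with YKL5124, and library size alone ended BIRC5 with AZ5576 and CCNB2 with THZ531.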

How the data were processed

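The table deposited by the authors gives raw whole-number counts of 295100 transcript rows in 12 libraries. The tools named per the submitters' processing notes are Trim Galore 0.6.5, edgeR 3.32.1 and bcl2fastq 2.17.1.14, with builds hg38 and dm6. Aligner, counter, annotation and strand setting: not given in the sources used here. QuantSeq forward libraries read 3′ ends, and Drosophila S2 material (5%) was added to purified RNA, per the labels' protocols. Columns named UT were taken as DMSO, the group left without columns.

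Rows were named through GENCODE v29 (GRCh38). Of 256726 human rows, 5197 had no name, came to 0.655% to 0.719% of the human counts in each library and were not used. The row with the highest total stood for each gene, since rows overlap, and 94 genes with counts identical to another gene's were dropped, none of them a member. Tests used edgeR 4.0.16 in R 4.3.3 with limma 3.58.1: filterByExpr (minimum count 10), TMM factors and 1 quasi-likelihood fit over all 12 libraries by group alone, with a threshold of 0.05 on Benjamini-Hochberg values. Standard errors are log2 fold changes, without sign, over the root of the F statistic. On simulated counts the fit was tested before use.

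The 41 genes, the list of 80 and the marker genes were chosen with earlier results of these data known. The results of 2 further lists of marker genes are not reported here, and the statement that markers of other cells summed to under 1 CPM does not cover them. By the naming rule, every library's value is given for members that passed a test against DMSO by at least 1.5-fold or moved in opposite directions under 2 inhibitors. FOXM1, CDK1 and CDC20 are shown in addition, chosen after their values were seen. Of the list of 80, the 2 genes with the smallest adjusted p in each direction were named. Within groups, chi-square per gene between libraries was 1.73 to 4.97, so no 2 libraries were copies within sampling noise. The alternatives tried were fly, RLE and upper quartile scaling, scaling by library size alone, other filters, DESeq2 1.42.0, summed rows, only the 6 libraries compared, a replicate block and leaving out each library. Coding transcripts' rows, single rows and inner ends were added after seeing the data.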

Additional observations from a re-analysis of the deposited data

How the results depend on the processing

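Depth limited PLK4, KIF18A and ESPL1 most, with at most 85 reads in a library. The median over the 41 genes with AZ5576, -0.16, was -0.11 with upper quartile scaling, -0.28 by library size alone and -0.35 by fly scaling. The genes lower with AZ5576 numbered 25 with library size alone, and the genes higher numbered 0 with library size alone, fly scaling or no count filter and 1 with summed rows. With THZ531 the median was -0.47 by library size alone, -0.54 by fly scaling, -0.22 with only the 6 libraries compared and -0.23 with coding rows. Genes lower with THZ531 numbered 28 by library size alone and 29 by fly scaling, and genes higher 5 and 2. With YKL5124 the median was -0.17 with RLE scaling and DESeq2, -0.13 with upper quartile scaling, -0.27 with fly scaling, -0.22 with no filter or coding rows and -0.25 with summed rows, and 11 genes were lower with upper quartile scaling. Between THZ531 and AZ5576 the median, 0.021, was -0.033 with upper quartile scaling, -0.15 by library size alone, -0.16 by fly scaling, -0.019 on summed rows and -0.053 on coding rows, and 9 genes were higher with either library size alone or fly scaling. Between YKL5124 and AZ5576 the median, -0.039, was 0.064 by library size alone and 0.085 by fly scaling, with 1 and 0 genes lower and 4 and 2 higher, and 2 genes were lower with only the 6 libraries compared. Between YKL5124 and THZ531 the median, -0.058, was 0.007 with upper quartile scaling and coding rows, 0.21 by library size alone, 0.24 by fly scaling, -0.005 on summed rows and -0.002 with only the 6 libraries compared, and 8 genes were lower with either library size alone or fly scaling, with 22 and 18 higher. BIRC5 (-0.096 and -0.17) and NUSAP1 (-0.27 and -0.34) turned negative with THZ531 with library size alone and fly scaling, and HJURP turned to 0.25 between YKL5124 and THZ531 with library size alone. KIF18A (-1.41 with THZ531 against DMSO, -0.92 against AZ5576) and CENPE (-0.86) turned negative on coding rows. Why these values moved was not tested beyond the construction of each scaling.

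Leaving out 1 library at a time gave 9 to 16 genes lower and 1 to 2 higher with AZ5576 (median -0.21 to -0.15), 16 to 20 and 8 to 9 with THZ531 (-0.21 to -0.14), and 11 to 19 and 0 to 0 with YKL5124 (-0.23 to -0.18). Between THZ531 and AZ5576 it gave 9 to 12 lower and 11 to 16 higher (-0.021 to 0.092), between YKL5124 and AZ5576 2 to 5 and 0 to 2 (-0.064 to -0.031), and between YKL5124 and THZ531 11 to 14 and 7 to 8 (-0.077 to 0.001). All genes called ranged from 5603 to 6743 with AZ5576, 9202 to 10224 with THZ531 and 2583 to 3604 with YKL5124, and between inhibitors from 7912 to 8974, 1688 to 2750 and 8788 to 9931 in the same order. Deviations from the group means were not correlated between same-numbered libraries (from -0.10 to 0.072). With 3 libraries per group this cannot decide whether the numbers mark a shared culture or day, which the labels do not state. With a replicate block, 15 genes were lower with AZ5576, 18 with THZ531 and 19 with YKL5124, and 122 of the 123 values against DMSO kept their side of the threshold, the exception being PLK4 with YKL5124, called only with the block.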
